A study of Mus musculus with 2 samples.

Results

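Wt1, Pax2 and Pax8 were followed through the single-cell RNA data of mouse oviduct epithelium. The members are these 3 genes, chosen by name out of 27998 genes in the adult table and 53573 in the P4 table, and all 3 are present in both. The adult library came from oviducts of C57BL/6 mice at estrus and the P4 library (by mouse usage postnatal day 4, which the labels do not spell out) from oviducts of C57BL/6 mice, with no stage given. Both cell suspensions were made with enzymes and sorted by FACS with Epcam and CD45 antibodies to drop dead cells and enrich epithelium, and both were sequenced as Chromium 3' V2 libraries. The labels give neither the number of animals nor whether they were pooled, so each age is 1 library.

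The adult table had 807 columns for 406 distinct barcodes, because 401 barcodes stood under both sample prefixes, and each barcode was counted once. No barcode was shared between the adult and the P4 library. The 406 adult cells held 1401641 unique molecular identifiers (UMI, each standing for 1 captured RNA molecule), with a median of 3232 per cell. The 263 P4 cells held 2123202 UMI, with a median of 7585. With 1 library per age there is no test: levels are UMI of the gene per 10000 UMI of the cells pooled, and the exact 95% Poisson, ratio and binomial intervals cover counting error only. Age cannot be told apart from estrous stage, library, sort, depth and annotation. The clusters are the authors' own and were made from expression, so differences between them are descriptions. Adult cluster 1 was multiciliated-like, with 15 of 15 markers at least 2-fold above the rest. Adult cluster 0 was secretory-like on a weaker basis, with 3 of 8 measured secretory markers at least 2-fold higher and Msln among its top 10 genes. Adult cluster 4 also had 3 of 8 at least 2-fold higher, with Agr2 and Ovgp1 among its top 10. Another 2 of its 8 were at least 2-fold lower. The other clusters are called by number.

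Wt1 encodes a zinc finger transcription factor of the developing kidney and gonad, of mesothelium and of tissues that arise from the Müllerian duct, the embryonic tube that forms oviduct and uterus. Pax2 and Pax8 encode closely related paired-box transcription factors. Both are required for urogenital ducts, Pax8 is also required for the thyroid, and PAX8 is widely used in pathology as a marker of Müllerian epithelium. In GENCODE M21 (GRCm38), Wt1 lies at chr2:105126529-105173616 on the plus strand (ENSMUSG00000016458.14, 9 transcripts), Pax2 at chr19:44756045-44837871 on the plus strand (ENSMUSG00000004231.15, 3 transcripts) and Pax8 at chr2:24420560-24475599 on the minus strand (ENSMUSG00000026976.15, 8 transcripts). All 3 are protein-coding.

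The promoter of Pax8 is shown because, as described below, genes of the Fos, Jun and Egr families were among its highest correlates across cells. That of the most 5′ RefSeq start of Pax2, the related gene, stands beside it. This start lies upstream of the Pax2 gene as placed in GENCODE M21 above. No window was available for Wt1. Both are RefSeq windows of GRCm38.p6, 250 bases before to 50 bases after the start, 5′ to 3′ on the strand of the gene. Capitals mark a match of GCGNGGGNG, a motif of zinc finger factors of the Wt1 and Egr kind. The AP-1 motif TGANTCA was searched as well, both motifs on both strands.
Pax8 chr2:24475550-24475849 minus strand: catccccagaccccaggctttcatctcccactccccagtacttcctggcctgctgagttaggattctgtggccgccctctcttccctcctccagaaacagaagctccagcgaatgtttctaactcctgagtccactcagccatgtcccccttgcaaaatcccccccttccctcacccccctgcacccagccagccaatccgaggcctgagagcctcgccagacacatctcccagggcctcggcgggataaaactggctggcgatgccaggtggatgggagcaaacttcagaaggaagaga
Pax2 chr19:44746351-44746650 plus strand: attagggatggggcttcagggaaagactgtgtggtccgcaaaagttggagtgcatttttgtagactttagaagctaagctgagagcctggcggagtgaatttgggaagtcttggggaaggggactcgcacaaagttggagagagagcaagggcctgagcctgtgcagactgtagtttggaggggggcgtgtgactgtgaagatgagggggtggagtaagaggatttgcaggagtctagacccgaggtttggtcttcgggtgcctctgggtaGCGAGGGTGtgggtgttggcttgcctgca
The Pax8 window (59.3% GC) held neither motif. The Pax2 window (54.7% GC) held 1 match of the zinc finger motif and none of AP-1, and the windows at chr19:44755502-44755801 and chr19:44756656-44756955 held neither. Of 32851 mouse promoter windows of this length, 12.3% held the zinc finger motif and 7.81% held AP-1. A match is a description of letters, not a binding site.

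The 3 genes had 3 different patterns. Wt1 stood at the same level in adult clusters 0 and 1, and was lower in adult clusters 3, 4 and 5 and in P4. Pax8 was lowest in the multiciliated-like cluster of the adult and did not differ beyond counting error between the P4 clusters. Pax2 was close to absent in the adult and, within P4, higher in the cluster where Wt1 was lower.

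Wt1 had 197 UMI in adult cluster 0, a level of 3.84 (3.32 to 4.42) per 10000, and 229 UMI in adult cluster 1, a level of 3.87 (3.38 to 4.40). The ratio of cluster 0 to cluster 1 was 0.994 (0.817 to 1.21). It did not differ beyond counting error within that interval. Against it, 12.7% of measured genes stood 2-fold or more above their cluster 1 level and 23% stood 2-fold or more below it. Wt1 was found in 61.5% of the 130 cells of cluster 0 and in 57.4% of the 183 cells of cluster 1, at median depths of 4108 and 3165 UMI.

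The smaller adult clusters had lower Wt1 levels. Adult cluster 3 had 1.38 (0.804 to 2.21) in 37 cells, adult cluster 4 had 1.47 (0.673 to 2.80) in 31 cells and adult cluster 5 had 2.05 (1.30 to 3.08) in 25 cells. Their intervals overlap each other, so the order of these 3 is not resolved. In cluster 5, a mixed cluster led by contractile genes such as Myh11 and Des, 19 of the 23 Wt1 UMI lay in the 7 cells with at least 10 smooth muscle UMI, where the level was 3.27. The remaining 4 UMI came from 1 of the other 18 cells.

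Depth moved with the adult Wt1 level. In cluster 0 the level was 4.03 in cells with at least 2000 UMI and 2.17 in shallower cells (ratio 1.86, 1.01 to 3.79), and in cluster 1 it was 4.01 and 2.48 (ratio 1.62, 0.944 to 3.01). Among cells with at least 2000 UMI the ratio of cluster 0 to cluster 1 was 1.0 (0.820 to 1.23). The part of depth in the differences between adult clusters was not tested. In the authors' merged clustering, adult cluster 0 fell into merged cluster 2 (79 cells) and merged cluster 4 (49 cells). Wt1 stood at 4.04 in the 79 cells and 2.35 in the 49 (ratio 1.72, 1.01 to 3.13). The adult cells of merged cluster 0, which took 178 of the 183 cells of adult cluster 1, had 3.77.

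In P4, Wt1 had 223 UMI in cluster 0, a level of 1.53 (1.33 to 1.74), and 45 UMI in cluster 1, a level of 0.679 (0.495 to 0.909). The ratio was 2.25 (1.63 to 3.17). At P4, 1.38% of measured genes were at least 2-fold higher in P4 cluster 0 than in P4 cluster 1, and 1.41% at least 2-fold lower. Wt1 was found in 70.2% of 168 cells of cluster 0 and 32.6% of 95 cells of cluster 1, at median depths of 7856 and 7029 UMI.

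**Figure D1:**
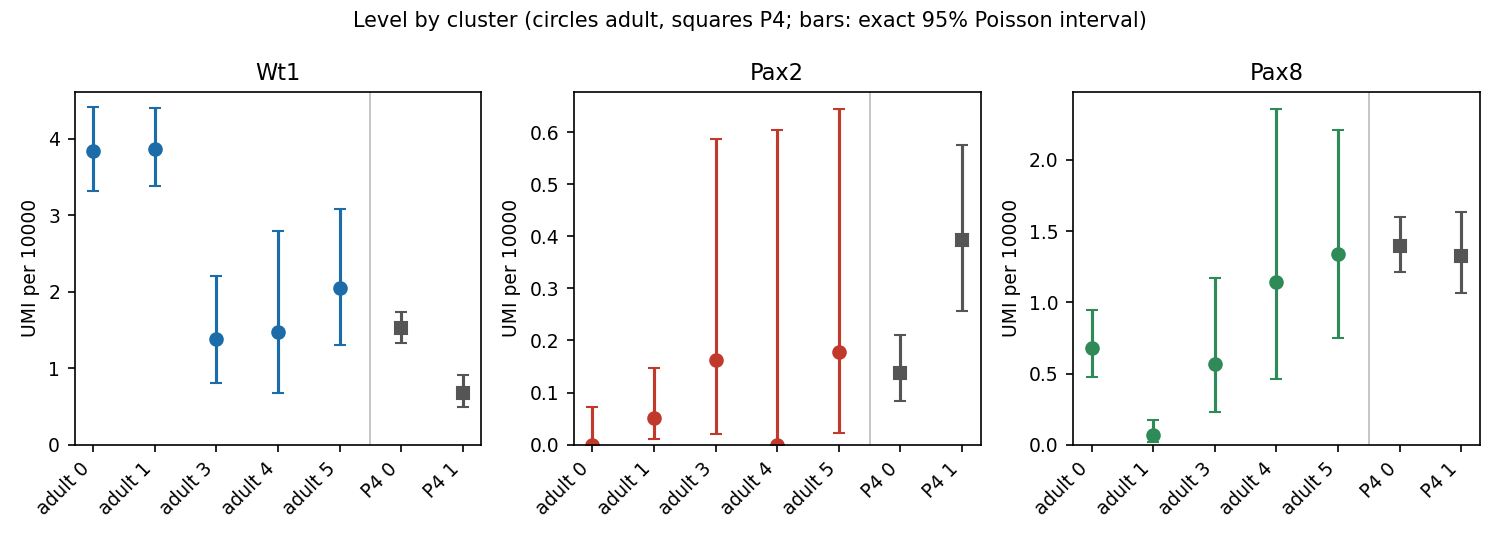
Level of each gene (y axis, UMI per 10000, starting at 0) in the 5 adult clusters (circles) and the 2 P4 clusters (squares), with exact 95% Poisson intervals. Wt1 stands at 3.84 and 3.87 in adult clusters 0 and 1 and below that in every other cluster, Pax2 is highest in P4 cluster 1 at 0.392, and Pax8 is lowest in adult cluster 1 at 0.0675.

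Over all cells and the 26897 genes in both tables, Wt1 stood at 3.45 in the adult and 1.46 in P4, a ratio of 2.37 (2.04 to 2.76). At least 2-fold higher levels in the adult were found for 11.5% of measured genes and at least 2-fold lower levels for 10.4%. Both large adult clusters exceeded both P4 clusters: adult cluster 0 over P4 cluster 0 was 2.21 (1.82 to 2.69), and adult cluster 1 over P4 cluster 1 was 5.05 (3.65 to 7.11). The share of cells with a Wt1 UMI went the other way, at 50.7% of adult cells and 56.7% of P4 cells, whose median depth was higher. Merged cluster 0 held most of the multiciliated-like adult cluster and a few P4 cells, not all of them with multiciliated RNA. There Wt1 stood at 3.84 in 197 adult cells and 1.62 in 14 P4 cells (ratio 2.37, 1.45 to 4.14).

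Markers of epithelium and of other cell types were counted in cells with and without a Wt1 UMI. Of 206 adult cells with Wt1, 205 held a UMI of the 8 epithelial markers, against 180 of 200 without Wt1 (median depths of 4518 and 1273 UMI), and all 149 P4 cells with Wt1 and all 114 without held one, so the measure separates nothing in P4. A UMI of the stromal list was held by 50% of adult cells with Wt1 and 21.5% of those without, and by 98.7% and 91.2% in P4. Mesothelium, which covers the oviduct and is known for Wt1, was marked by 8 genes. In adult cluster 1 these had 9 UMI in all, a level of 0.152, with Lrrn4, Bnc1 and Nkain4 at 0, beside a Wt1 level of 3.87. In adult cluster 0 the list stood at 1.46 with Bnc1 at 0, and 37 of its 75 UMI were Rspo1, which encodes a secreted activator of Wnt signaling. The list was 9.63-fold (4.81 to 21.9) higher in adult cluster 0 than in cluster 1. Within adult cluster 0 it stood at 1.68 in cells with Wt1 and 0.441 in cells without (ratio 3.81, 1.42 to 14.4), and 25% and 8% of these cells held a UMI of it, at median depths of 4970 and 1273. The part of mesothelial RNA in the Wt1 level of cluster 0 was not tested.

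Pax8 had 35 UMI in adult cluster 0, a level of 0.682 (0.475 to 0.949), and 4 UMI in adult cluster 1, a level of 0.0675 (0.0184 to 0.173). The ratio was 10.1 (3.61 to 39.1). In adult cluster 1 the 4 UMI came from 4 of 183 cells, a share of 2.19% (0.599 to 5.50), against 20.8% (14.2 to 28.8) of the 130 cells of cluster 0.

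The remaining adult clusters had Pax8 levels of 0.568 (0.229 to 1.17) in cluster 3, 1.15 (0.461 to 2.36) in cluster 4 and 1.34 (0.749 to 2.21) in cluster 5. These intervals overlap each other and that of cluster 0, and all 3 lie above that of cluster 1. In the merged clustering the adult cells of merged cluster 2 had 0.858 and those of merged cluster 0 had 0.0519, a ratio of 16.5 (5.33 to 83.0). The 79 cells of adult cluster 0 in merged cluster 2 had 0.666 and the 49 in merged cluster 4 had 0.942 (ratio 0.708, 0.289 to 2.08), so Pax8 showed no difference there beyond counting error, where the interval of Wt1 lay just above 1. Their median depths were 5000 and 1186 UMI. Whether the 2 genes differ from each other in this respect was not tested.

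In P4, Pax8 had 204 UMI in cluster 0, a level of 1.4 (1.21 to 1.60), and 88 UMI in cluster 1, a level of 1.33 (1.07 to 1.64), with a ratio of 1.05 (0.815 to 1.37). It was found in 61.9% and 61.1% of their cells. Over all cells and shared genes the adult level was 0.494 and the P4 level 1.59, a ratio of 0.311 (0.235 to 0.406). The largest contrast was that of adult cluster 1 with the P4 clusters, at a ratio of 0.0426 (0.0115 to 0.111) to P4 cluster 0.

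The P4 cells of merged cluster 0, the cluster that took most of adult cluster 1, were few. Their pooled Pax8 level differed from that of the other P4 cells in the same direction. The 14 P4 cells of merged cluster 0 had 7 Pax8 UMI, and the 225 P4 cells of merged cluster 1 had 273. Merged cluster 1 stood at 1.46 and merged cluster 0 at 0.591, a ratio of 2.48 (1.19 to 6.22). In these 14 cells pooled the multiciliated list was at 63.5, against 2.65 in the 225. Its 753 UMI were not spread over all 14 cells. Leaving out those of P4 cluster 0 without Wt1 moved the list from 108 UMI in 50 cells to 107 in 47. The 14 are therefore not uniformly multiciliated-like. Their stromal list was at 5.57, against 6.11, and their smooth muscle list at 2.53, against 3.94 (ratio 0.642, 0.430 to 0.925). The part of this RNA in the Pax8 difference was not tested. Against the adult cells of merged cluster 0, which had a Pax8 level of 0.0529 on shared genes, the 14 P4 cells had 0.667, an adult to P4 ratio of 0.0792 (0.0132 to 0.347).

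Within P4 cluster 0, cells were ordered by UMI of the genes of multiciliated precursors, such as Deup1, Ccno and Myb, which act in centriole amplification and the onset of ciliation. Pax8 stood at 0.724 (0.405 to 1.19) in 15 cells with at least 5 such UMI, 1.60 (1.29 to 1.97) in 55 cells with 1 to 4, and 1.43 (1.17 to 1.74) in 98 cells with 0. The ratio of the highest to the lowest group was 0.506 (0.273 to 0.874). Of the 15 cells, 7 are cells of merged cluster 0 already described, so this is no separate observation. The stromal list moved with it, at 0.707 (0.568 to 0.874), and Wt1 stood at 0.766 (0.475 to 1.19). The part of stromal RNA in the Pax8 difference was not tested.

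Pax2 had 7 UMI in the whole adult library, 1 each in 7 of 406 cells (1.72%, 0.696 to 3.52). Adult cluster 0 had 0 UMI in 130 cells; taken as 3 counts, the limit is a share of 2.31% of cells with a UMI and a level of 0.0585, and the exact intervals end at 2.80% and 0.0719, and adult cluster 1 had 3 UMI in 183 cells. In P4, 46 UMI lay in 44 of 263 cells (16.7%, 12.4 to 21.8). The adult level was 0.0508 and the P4 level 0.250 over shared genes, a ratio of 0.203 (0.0775 to 0.453).

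Between the P4 clusters Pax2 ran opposite to Wt1. It had 20 UMI in cluster 0, a level of 0.137 (0.0836 to 0.212), and 26 UMI in cluster 1, a level of 0.392 (0.256 to 0.575). The ratio was 0.349 (0.185 to 0.650), with 11.9% of cells of cluster 0 and 25.3% of cells of cluster 1 holding a UMI. The other 7 genes of the Pax family, Pax1, Pax3 to Pax7 and Pax9, had 0 UMI in the adult and 0 in P4.

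RNA of other cell types was spread through the P4 cells, and its values stand beside those of the 3 genes. A UMI of Col1a1, a fibrillar collagen gene of stroma, was found in 73.8% of P4 cells and 10.6% of adult cells. Dcn, a stromal proteoglycan gene, was found in 63.1% and 10.6%, and the mesothelial gene Upk3b in 51.3% and 1.97%. UMI of at least 2 stromal, smooth muscle, mesothelial, endothelial or immune markers were found in 255 of 263 P4 cells and 128 of 406 adult cells. Pax8, found in 61.6% of P4 cells, was therefore no more widespread than Dcn, and the share of P4 cells that express each gene cannot be read from these shares.

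Summed stromal and mesothelial RNA did not differ beyond counting error between the P4 clusters, and summed smooth muscle RNA was slightly higher in P4 cluster 0. The ratios of Wt1 and Pax2 lay outside those of the 3 summed lists, though single markers passed that of Wt1. The 8 stromal markers summed to 6.22 in P4 cluster 0 and 6.07 in P4 cluster 1 (ratio 1.03, 0.911 to 1.16). The 8 mesothelial markers summed to 1.89 and 1.95 (ratio 0.971, 0.785 to 1.21), and the 6 smooth muscle markers to 4.11 and 3.37 (ratio 1.22, 1.04 to 1.43). Lrrn4 alone among the mesothelial markers had a ratio with an interval above 1, at 3.93 (1.21 to 20.3). Among the smooth muscle markers Actg2 did, at 2.63 (1.01 to 8.71). Both exceeded the 2.25 of Wt1. The lowest single marker was Gpm6a at 0.518 (0.164 to 1.68), above the 0.349 of Pax2. Across ages the stromal list had a ratio of adult to P4 of 0.329 and the mesothelial list 0.310, close to the 0.311 of Pax8, and the smooth muscle list had 1.78. The part of this RNA in the P4 levels of Pax8 was not tested.

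**Figure D2:**
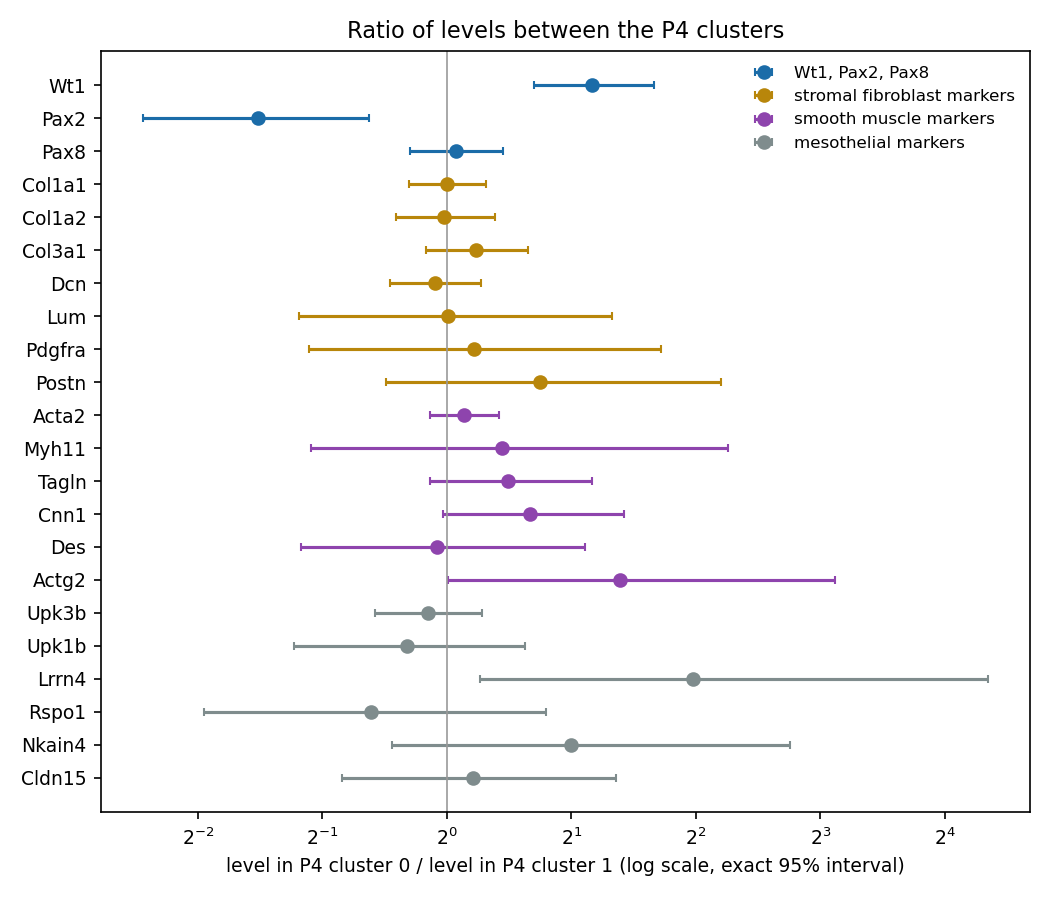
Ratio of the level in P4 cluster 0 to that in P4 cluster 1 (x axis, log scale) with exact 95% intervals, for Wt1, Pax2 and Pax8 and for markers of stromal fibroblasts, smooth muscle and mesothelium with at least 20 UMI in P4. Wt1 lies at 2.25 and Pax2 at 0.349, with intervals on either side of 1, while Pax8 lies at 1.05 among the stromal markers.

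The spread of each gene over the cells of a cluster was measured as the mean squared deviation from the count expected from the depth of the cell, divided by that count, so that 1 is counting error. Wt1 stood at 1.09 in adult cluster 0 and 1.09 in adult cluster 1, where the median of genes with a like number of UMI was 1.30 and 1.25. Ovgp1, the oviductal glycoprotein gene of secretory cells, stood at 15.5 and 11.6, and Epcam, the epithelial adhesion gene used in the sort, at 4.12 and 1.30.

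Wt1 was more uneven in P4 cluster 0, at 1.59, above 89.2% of the 817 genes with a like number of UMI, and stood at 0.954 in P4 cluster 1. Pax8 stood at 1.34 in adult cluster 0, above 85.8% of genes with a like number of UMI, at 1.37 in P4 cluster 0, above 80.9%, and at 0.957 in P4 cluster 1. Pax2 stood at 0.876 in P4 cluster 0 and 1.0 in P4 cluster 1. In adult cluster 0, Wt1 was found in 61.5% of cells where counting alone gives 66.9%, and in P4 cluster 1, Pax2 was found in 25.3% where counting alone gives 23.5%. With such counts, cells without a UMI are not shown to lack the transcript.

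**Figure D3:**
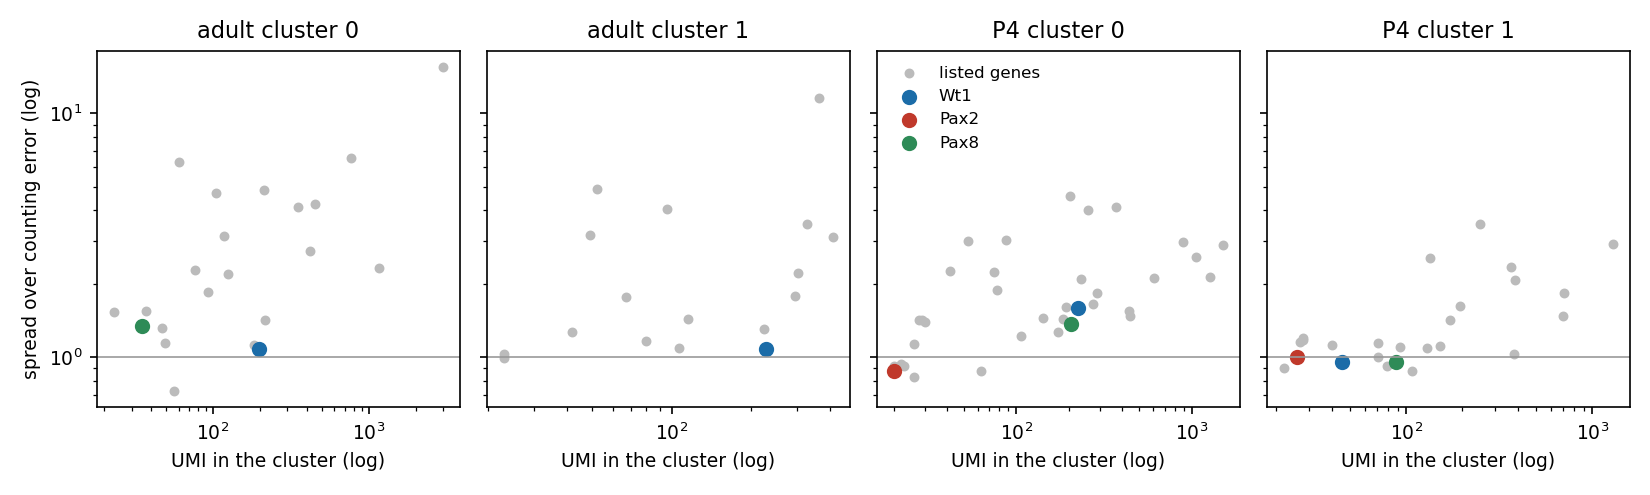
Spread over counting error (y axis, log scale, 1 is counting error alone) against UMI of the gene in the cluster (x axis, log scale), for Wt1, Pax2, Pax8 and, in grey, listed epithelial, secretory, stromal, smooth muscle and mesothelial genes. Wt1 stands at 1.09 in both adult clusters, and the uppermost grey points there are Ovgp1 at 15.5 and 11.6.

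Cells with more than 1 of the 3 genes were rarer in the adult than in P4. UMI of at least 2 of the 3 genes were found in 34 of 406 adult cells (8.37%, 5.87 to 11.5) and 118 of 263 P4 cells (44.9%, 38.8 to 51.1). With each cell thinned to 1000 UMI these shares became 0.621% of 322 adult cells and 2.28% of 263 P4 cells. Wt1 alone was found in 173 adult cells and none of the 3 genes in 177. In P4, 82 cells held Wt1 and Pax8, 19 held all 3 genes and 45 held none.

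Depth has to be set beside each of these overlaps. In P4 cluster 1, Pax8 was found in 25 of 31 cells with Wt1 (80.6%, 62.5 to 92.5, median depth 7892). It was found in 33 of 64 cells without (51.6%, 38.7 to 64.2, median depth 6146). In P4 cluster 0 it was found in 64.4% of cells with Wt1 and 56% of cells without. Pax2 was found in 21 of 149 P4 cells with Wt1 and in 23 of 114 without. With the depth of each cell taken out, the correlation r of the genes was close to 0. That of Wt1 with Pax8 was 0.0056 across 130 cells of adult cluster 0, −0.034 across 168 cells of P4 cluster 0 and 0.011 across 95 cells of P4 cluster 1. In P4 cluster 1 the shares and r thus differed, and the part of depth in the shares was not tested. Pax2 and Pax8 had r of −0.001 in P4 cluster 0 and 0.088 in P4 cluster 1, and Wt1 and Pax2 had −0.023 and −0.014.

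Genes that vary with each of the 3 were looked for in clusters of at least 90 cells in which the gene had a UMI in at least 20 cells. The measure is Pearson's r across cells of residuals that take out cell depth, for genes with a UMI in at least 10% of cells. Cells of a cluster share 1 library, and weak correlations of sparse counts are no finding, so each gene named from 1 cluster was looked up in the others. The 5 highest and 5 lowest genes per cluster are named below or counted in the lookup, leaving out ribosomal protein genes, mitochondrial genes, pseudogenes and Gm, Rik and clone-named models, so that a gene called highest or lowest is so among the rest. The extremes left out by this were 0610009O20Rik (0.40) with Pax8 in adult cluster 0, Rps13-ps2 (−0.27) with Wt1 in P4 cluster 0, and Gm5909 (0.39) and Rplp2 (−0.30) with Pax2 in P4 cluster 1.

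Few genes reached an absolute r of 0.2. With Wt1 it was 2.59% of measured genes in adult cluster 0, 1.59% in adult cluster 1, 1.27% in P4 cluster 0 and 6.66% in P4 cluster 1, the smallest of these clusters. With Pax8 it was 2.48% in adult cluster 0, 1.77% in P4 cluster 0 and 5% in P4 cluster 1. With Pax2 it was 1.25% in P4 cluster 0 and 4.46% in P4 cluster 1. At an absolute r of 0.3 there were 65 of 24221 gene and cluster pairs with Wt1, 34 of 15581 with Pax2 and 60 of 19943 with Pax8.

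The highest r with Wt1 in adult cluster 0 belonged to Shisa8 (0.32), Lsm14a (0.31), which encodes an RNA-binding protein of processing bodies, Csk, Smad4 and Nufip2. The lowest were led by Ndufs5 (−0.29), a subunit of mitochondrial complex I, and Psma7 (−0.26), a proteasome subunit. In adult cluster 1 the highest were Abhd17c (0.32), Esyt2, Scarb2, Tmem65 and Emx2 (0.29). Emx2, a homeobox gene required for the Müllerian duct, had 37 UMI in 105 cells with Wt1 and 1 UMI in 78 cells without, levels of 0.832 and 0.0677. Its r with Wt1 was 0.026 in adult cluster 0, 0.16 in P4 cluster 0 and 0.12 in P4 cluster 1. In adult cluster 1 it fell to 0.032 with cells thinned to 1000 UMI.

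At the low end in adult cluster 1 stood Mif (−0.24), Cited2 (−0.24), a transcriptional coregulator known to act with Wt1 in the adrenal and gonad, and Spp1 (−0.23), which encodes osteopontin. Cited2 had a level of 0.944 in cells with Wt1 and 3.93 in cells without, and Spp1 had 4.0 and 12.9. By rank of UMI per 10000, r was −0.00018 for Cited2 and −0.013 for Spp1, so neither relation appeared on ranks. Ranks do not take out the effect of depth on detection, so they do not decide the matter. Adult cells with Wt1 in this cluster had a median depth of 3811 UMI, and cells without had 1004. Elsewhere the r of Cited2 with Wt1 was 0.11 in adult cluster 0, −0.022 in P4 cluster 0 and 0.10 in P4 cluster 1, and that of Spp1 was 0.15 in adult cluster 0.

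In P4 cluster 0 the highest r with Wt1 was 0.32 for Washc4, followed by 0.32 for the kinase gene Akt1 and 0.30 for Cnot1. P4 cluster 1 had the highest values of all: Serp1 (0.54), Igfbp2 (0.49), which encodes a binding protein of insulin-like growth factors, Pclaf (0.46), Tmpo (0.44) and Rad50 (0.44). Pclaf, a partner of the replication clamp, had 87 UMI in 31 cells with Wt1 and 14 UMI in 64 cells without. Serp1, which protects newly made membrane proteins, had r of −0.21, 0.13 and 0.10 in adult clusters 0 and 1 and P4 cluster 0.

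A list of 10 proliferation genes lay on the positive side with Wt1 in P4 cluster 1. All 10 had r above 0, 3 of them at least 0.2, and the median was 0.18, beside −0.0048 for all measured genes. The 3 were Pcna (0.35), the replication clamp, Ube2c (0.22) and Birc5 (0.20). In P4 cluster 0 the median of the list was −0.047 and 2 of 10 genes were above 0. The summed level was 8.20 in the 31 cells with Wt1 and 2.84 in the 64 cells without (ratio 2.89, 2.29 to 3.66), with single-gene ratios between 2.20 for Cdk1 and 4.41 for Ccnb1. The 8 cells of P4 cluster 1 with at least 10 proliferation UMI all held Wt1, at a level of 1.41 (0.773 to 2.37), against 0.550 (0.374 to 0.781) in the other 87. Their median depth was 11967 UMI, against 6697. All 8 also held Pax8, at a level of 1.21 (0.626 to 2.12), against 1.35 (1.06 to 1.69) in the other 87. Pax2 was held by 4 of the 8, at 0.404 against 0.390. In P4 cluster 0 Wt1 stood at 1.51 and 1.53 in the corresponding groups.

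For Pax8 the highest genes in adult cluster 0 were Abhd11 (0.39), Mrpl2 (0.38) and Kdm6b (0.36), which encodes a histone demethylase. In P4 cluster 0 they were Ccdc8 (0.34), Plbd2 (0.33), the immediate early gene Fos (0.31), Spry2 (0.31), a feedback inhibitor of receptor tyrosine kinase signaling, and Rtn3 (0.31). In P4 cluster 1 they were Tmem141 (0.44), Rpp14 (0.41) and Socs2 (0.38), a feedback inhibitor of cytokine signaling whose r fell to 0.19 without the cell with the most Pax8 UMI. Kdm6b kept a positive r in P4 cluster 0 (0.23) but not in P4 cluster 1 (−0.029). Fos stood at 13.2 in P4 cluster 0 cells with Pax8 and 8.97 in cells without.

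Immediate early and other dissociation response genes, a list of 15, leaned towards Pax8, and in the adult towards Wt1 as well. In adult cluster 0 all 13 measured members had r above 0, with a median of 0.11 beside −0.014 for all genes and the highest for Junb (0.33) and Atf3 (0.23). In P4 cluster 0, 11 of 14 were above 0, with a median of 0.13, and besides Fos the highest were Egr1 (0.26) and Ier3 (0.23). In P4 cluster 1, 8 of 14 were above 0, with a median of 0.017, and Egr1 had 0.21. With Wt1 the medians were 0.093 in adult cluster 0, 0.12 in adult cluster 1, 0.040 in P4 cluster 0 and −0.014 in P4 cluster 1. Of the measured members, 12 of 13 were above 0 with Wt1 in each of the 2 adult clusters. In P4 clusters 0 and 1 it was 10 of 14 and 6 of 14. An r of at least 0.2 with Wt1 was reached by 3 in adult cluster 0, where 2 reached it with Pax8. In adult cluster 0 the list stood at 150.8 in cells with Wt1 (median depth 4970) and 96.4 in cells without (median depth 1273). The part of the dissociation in these values was not tested.

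Multiciliated genes lay at the other end for Pax8 in P4 cluster 0. All 5 measured precursor genes had r below 0, with a median of −0.17, as had 7 of 8 measured multiciliated genes, with a median of −0.13. For Wt1 the same lists had medians of −0.054 and 0.0053. The summed multiciliated level was 9.77 in P4 cluster 0 cells with Wt1 and 2.90 in cells without (ratio 3.37, 2.76 to 4.15). Without the cells of merged cluster 0 it was 3.16 and 2.93 (ratio 1.08, 0.863 to 1.36). Leaving them out took the cells with Wt1 from 118 to 110 and their list UMI from 1063 to 311. The cells without Wt1 went from 50 to 47 and from 108 to 107 UMI. The difference thus rested on the few merged cluster 0 cells with Wt1.

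With Pax2, P4 cluster 0 gave Cebpzos (0.38), Plxna1 (0.36), a semaphorin receptor gene, Vps54 (0.35), Fkbp10 and Ddx39b. P4 cluster 1 gave Adss (0.37), Prcp (0.36), Atp5o, Aen and Tgif1, and at the low end the imprinted RNA gene H19 (−0.30). Vps54, of an endosome tethering complex, had 0.26 with Pax2 in P4 cluster 1 as well, and was the only one of the 10 highest genes to reach 0.2 in both. It rested on 19 UMI in P4 cluster 0, of which 9 lay in the 20 cells with Pax2. Podxl, a podocyte sialomucin gene known as a Wt1 target in kidney, had 0.29 with Pax2 in P4 cluster 0 and 0.064 in P4 cluster 1. Ovgp1 had 0.21 with Pax2 and 0.26 with Pax8 in P4 cluster 0, and −0.0034 and 0.082 in P4 cluster 1.

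Little of this repeated between clusters. The 5 highest genes of Wt1 had the same sign in 26 of 46 lookups in another cluster and reached 0.2 in 0 of them. Those of Pax2 had the same sign in 5 of 10, with 1 at 0.2, and those of Pax8 in 18 of 26, with 1 at 0.2. The 5 lowest genes of Wt1 had the same sign in 25 of 49 lookups, with 2 at −0.2 or lower. Those of Pax2 had it in 5 of 10 and those of Pax8 in 15 of 29, with 0 at −0.2 or lower. Of the 50 highest genes of a cluster, between 34% and 66% had r above 0 in another cluster, beside 43.8% to 52.7% of all measured genes. Across all genes measured in 2 clusters, r in the first was unrelated to r in the second, with a correlation of −0.033 to 0.096, a description over genes, which are not independent. An r of at least 0.1 in all 4 clusters was found with Wt1 for 1 of 2941 genes, Immp1l, a subunit of a mitochondrial peptidase, and an r of −0.1 or lower for 1, Mrps33, of the mitochondrial ribosome. With Pax8, 9 of 3853 genes reached 0.1 in all 3 clusters and 13 were at −0.1 or lower. With Pax2, for which only 2 clusters qualified, 114 of 6861 genes (1.66%) reached 0.1 in both and 112 (1.63%) were at −0.1 or lower.

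**Figure D4:**
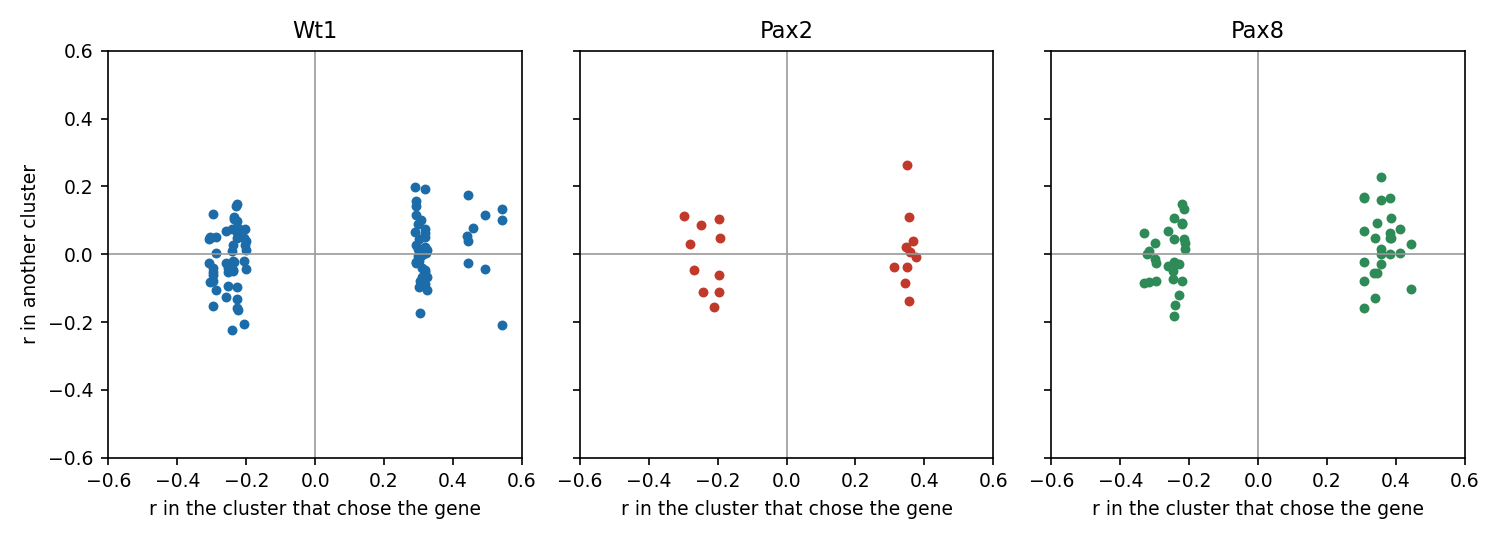
The r of each of the 5 highest and 5 lowest genes per cluster (x axis, in the cluster that chose the gene) against its r in another cluster (y axis), for Wt1, Pax2 and Pax8. Points left and right lie above and below 0 in the other cluster alike, and the highest on the right is 0.26 for Vps54 with Pax2.

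Genes known to act with or downstream of the 3 elsewhere in the body had median r close to those of all measured genes. Of 24 Wt1 targets of kidney and gonad, 6, 5, 12 and 11 were measured in adult clusters 0 and 1 and P4 clusters 0 and 1, and their median r with Wt1 was 0.014, −0.022, −0.00073 and 0.066. One of them reached 0.2, Spry1 in P4 cluster 1 (0.26), which encodes an inhibitor of receptor tyrosine kinase signaling. Of 19 Pax2 and Pax8 targets of kidney and thyroid, 4, 6 and 6 were measured in adult cluster 0 and P4 clusters 0 and 1. Their median r with Pax8 was −0.014, 0.041 and 0.00995. Among them Cdh16, the kidney and thyroid cadherin gene, had 0.23 in P4 cluster 0, and Bcl2 had −0.22 in adult cluster 0. Mecom, a zinc finger gene on the same list, had −0.29 with Wt1 in P4 cluster 1.

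Cofactors and other factors of the Müllerian duct had low median r as well, but in some clusters most of them lay on the positive side of Wt1. Of 15 cofactors of Wt1 and Pax proteins, median r with Wt1 lay between −0.058 in adult cluster 1 and 0.065 in adult cluster 0. Of those measured, 6 of 6 and 1 of 4 were above 0 in adult clusters 0 and 1. In P4 clusters 0 and 1 it was 8 of 13 and 2 of 11. Of 32 Müllerian and urogenital factors the median lay between −0.018 in P4 cluster 1 and 0.095 in adult cluster 1, where Emx2 alone reached 0.2. All measured genes had a median of 0.0036 in adult cluster 1. Of the measured factors, 8 of 9 were above 0 there, 7 of 9 in adult cluster 0, 9 of 12 in P4 cluster 0 and 4 of 11 in P4 cluster 1. With Pax8 the Müllerian and urogenital list had −0.036, 0.053 and −0.022 in adult cluster 0, P4 cluster 0 and P4 cluster 1, with 3 of 9, 9 of 12 and 5 of 11 above 0. Hox genes, which pattern the duct along its length, had medians with Wt1 between −0.045 and 0.014. Of 25 Hox genes, 6 and 1 were measured in adult clusters 0 and 1, and 12 and 9 in P4 clusters 0 and 1. In P4 cluster 1, Hoxa7 and Hoxb5 had r of 0.25 with Wt1 and Hoxb8 had −0.23, from 11, 14 and 17 UMI.

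Over the 7 clusters of both ages the levels of Wt1 followed most closely those of Idh3b (r = 0.97 on the log2 scale over 7 clusters), a mitochondrial enzyme subunit gene, Sfxn5 (0.96), Npr1 (0.95), a natriuretic peptide receptor gene, Anxa4 (0.94) and Nr2f1 (0.93), a nuclear receptor gene. Pax2 was followed by Ccnd2 (0.97), a G1 cyclin gene, Acer2, Phactr4, Uchl3 and Hdac9, and Pax8 by Peak1 (0.94), Lpin2, Rsf1, Gpsm2 and Psmb10. Of 4522 genes, 8 reached 0.9 with Wt1, 18 with Pax2 and 8 with Pax8, and 4, 3 and 82 stood at −0.9 or lower. The points share libraries, with 5 of them adult. Wt1 ran against Pax2 (−0.70) and Pax8 (−0.65), and Pax2 with Pax8 had 0.38, with the same limit for Pax2.

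Wt1os, the antisense RNA gene next to Wt1, was chosen after its values were seen. It lies at chr2:105076538-105126510 on the minus strand (ENSMUSG00000074987.9), with 19 bases between the starts of the 2 genes. It had 16 UMI in adult cluster 0 and 6 in adult cluster 1, levels of 0.312 and 0.101 (ratio 3.08, 1.14 to 9.61), where Wt1 was level. In P4 it had 20 UMI in cluster 0 and 1 UMI in cluster 1 (ratio 9.07, 1.45 to 376). Its r with Wt1 across cells was −0.10 in adult cluster 0, 0.11 in adult cluster 1 and −0.0070 in P4 cluster 0. Whether reads were assigned by strand is not given in the sources used here.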

How the data were processed

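Per the labels' protocols, oviduct cells of C57BL/6 mice were dissociated with enzymes, sorted and run as Chromium 3' V2 libraries. The authors deposited count tables (UMI counts per gene and cell, not normalized) and cluster tables; Cell Ranger, Seurat 2.3.4 and mm10 are named per the submitters' processing notes. The 3 genes and all gene lists were chosen with earlier results of these data known.

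Each adult barcode was counted once, and every deposited cell was used. Levels were pooled UMI per 10000, compared between ages over 26897 genes in both tables. Depth ranged between 502 and 16207 UMI in adult cells and 1331 and 23372 in P4 cells. Correlations used Pearson residuals of counts given cell depth, a negative binomial with theta 100. Genes named are the 5 highest and 5 lowest r per cluster (without ribosomal protein, mitochondrial, pseudogene, Gm, Rik and clone-named entries), listed genes with an absolute r of at least 0.2, and the 5 closest patterns over clusters, whose log2 levels used a pseudocount of 0.1. Doublets were not called; leaving out the deepest 5% of cells was an alternative, as was thinning to 1000 UMI. Scripts (Python 3.11.15, numpy 2.4.6, pandas 2.3.3, scipy 1.17.1, matplotlib 3.10.9) were tested on simulated data.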

Additional observations from a re-analysis of the deposited data

Results flagged for a closer look

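The 8 epithelial markers lay on opposite sides of Wt1 in the P4 clusters. Their median r with Wt1 was 0.108 in P4 cluster 0, with 7 of 8 above 0, and −0.131 in P4 cluster 1, with 1 of 8 above 0, a difference of 0.239. The difference was not tested, since each age is 1 library.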

How the results depend on the processing

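Of 51 ratios of a level under another setting, 49 stayed within the interval of the reported value. No ratio whose interval excluded 1 changed direction, while those near 1 changed sign: the log2 ratio of Wt1 in adult cluster 0 over cluster 1 lay between −0.05 and 0.13, and that of Pax8 in P4 cluster 0 over cluster 1 between −0.06 and 0.17. The interval came to include 0 for Pax8 in adult cluster 0 over cluster 1 after thinning (2.65, −0.51 to 8.22) and for Pax2 in adult over P4 after thinning (−1.79, −5.18 to 0.82). Without cells holding UMI of other cell types it did so for adult over P4 of Wt1 (1.32, −0.55 to 4.37) and Pax8 (−1.97, −3.62 to 0.37). Thinning each cell to 1000 UMI put the log2 ratio of Wt1 in P4 cluster 0 over P4 cluster 1 at 1.98 (1.17 unthinned). The mean over cells put the Wt1 ratio of adult over P4 at 0.95 on the log2 scale (1.24 from pooled UMI). Thinning also lowered the share of cells with at least 2 of the 3 genes to 0.621% in the adult and 2.28% in P4.

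Counts of genes with an absolute r of at least 0.3 depended on the measure and on the number of genes tested. For Wt1 (65) the count was 176 with the log of normalized values, 178 with Spearman's correlation, 21 after thinning, 34 among genes in at least 25% of cells and 249 among genes in at least 1 cell. For Pax2 (34) it was 15 after thinning, 12 and 190 under these filters, and 66 without the cells highest in dissociation genes. For Pax8 (60) it was 23 after thinning, and 22 and 283 under these filters. Shares of the genes tested did not follow these counts. For Wt1 the share was 0.268% as reported, 0.366% after thinning, 0.317% among genes in at least 25% of cells and 0.393% in at least 1 cell. For Pax2 these shares were 0.218%, 0.529%, 0.164% and 0.508%. For Pax8 they were 0.301%, 0.56%, 0.245% and 0.565%. Causes beyond the number of genes tested were not tested.

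No value was possible for Pax2 between adult clusters 0 and 1, for Pax2 between the P4 clusters after thinning, or, without cells holding UMI of other cell types, for the 3 genes between the P4 clusters and Pax2 between ages, because 8 P4 cells were left. Settings that use only cells with at least 2000 UMI, or leave out the cell with the most UMI of a gene, were added after seeing the data. No paired analysis was possible because each age has 1 library and no test was made. Pax2 had 7 UMI in the adult, so its adult values rest on few counts.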
